A study of Mus musculus with 12 samples.

Results

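The interferon stimulated genes are 46 genes chosen by name for their known role in the interferon response and described here across sorted mouse macrophages. All 46 were found by symbol and Ensembl identifier among the 46517 genes of the count table, and all 46 were among the 14216 genes that passed the filter on low counts. Bulk RNA sequencing was run on wild type C57/BL6 adult mice, with 3 libraries in each of 4 groups and no treatment. The groups were LYVE1+ and LYVE1- macrophages of the aorta (cells from 30 mice) and LYVE1+ and LYVE1- macrophages of epididymal and subcutaneous fat (cells from 20 mice). In all 4 groups the sort took live cells with surface CD45, CD64, MerTK, CD11b and F4/80, and LYVE1, a hyaluronan receptor, then divided them. Cells of many animals were pooled. Nothing in the labels tells if a group's 3 libraries are separate pools of animals or repeats of a single pool, and p-values therefore measure only the spread between these libraries.

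Type I interferons such as interferon beta bind the IFNAR receptor, and the kinases JAK1 and TYK2 then pass the signal on. In the nucleus a complex that includes STAT2 and IRF9 binds the interferon stimulated response element in the promoters of target genes. The targets include RNA and DNA sensors, proteins that block viral replication, the ubiquitin-like modifier ISG15, and the factors IRF7, IRF9 and STAT2 themselves, so that the response feeds back on its own machinery.

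The genes of the sort were read in every library: summed over Ptprc, Fcgr1, Mertk, Itgam, Adgre1 and Lyve1 they reached 2430 to 5780 CPM (counts scaled to the library size). Lyve1 stood at 2044 to 2807 CPM in aortic LYVE1+ libraries against 868 to 1323 CPM in LYVE1- libraries. In fat Lyve1 stood at 1497 to 2193 CPM against 230.1 to 611 CPM. Totals ran from 5049936 to 29792301 counts per library. Both fat libraries numbered 1 stood apart, with 8.85% (LYVE1+) and 12.1% (LYVE1-) of counts from mitochondrial genes against 1.79% to 3.2% in the other 10 libraries, and their summed erythroid markers (4 globin genes and Alas2) came to 25100 and 5210 CPM, against 1.8 to 1400 CPM elsewhere. Library identifiers carried the prefix RMM in aortic LYVE1+ libraries 1 and 2 and in all fat libraries, and RHH in aortic LYVE1+ library 3 and all aortic LYVE1- libraries. In LYVE1- cells the prefix and the tissue therefore cannot be told apart. In the aorta the prefix also follows the sort, except in LYVE1+ library 3, so the aortic sort differences largely share this limit. In such bulk samples fewer cells of a type and less RNA per cell cannot be told apart either.

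Promoters of 6 members and of the ligand gene Ifnb1 are shown first, to set genes with and without a match to the core of the response element side by side, whatever their difference between tissues. The sequences are the 170 bases before each RefSeq start site on GRCm38.p6, written 5′ to 3′ on the strand of the gene, and capitals mark every match, on either strand, to the core of the response element: GAAA, any 2 bases, GAAA.
Ifit1 (chr19:34640719-34640888, plus strand): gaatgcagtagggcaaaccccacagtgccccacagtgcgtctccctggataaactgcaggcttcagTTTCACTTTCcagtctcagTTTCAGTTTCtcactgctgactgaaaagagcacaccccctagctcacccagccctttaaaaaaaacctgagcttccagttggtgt
Ifit3 (chr19:34583359-34583528, plus strand): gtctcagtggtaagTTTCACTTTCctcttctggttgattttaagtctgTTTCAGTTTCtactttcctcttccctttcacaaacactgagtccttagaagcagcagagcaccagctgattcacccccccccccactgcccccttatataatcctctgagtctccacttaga
Isg15 (chr4:156200819-156200988, minus strand): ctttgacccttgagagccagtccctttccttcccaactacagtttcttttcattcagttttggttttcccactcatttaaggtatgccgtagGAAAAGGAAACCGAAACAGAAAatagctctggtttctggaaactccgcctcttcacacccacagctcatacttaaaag
Rsad2 (chr12:26456453-26456622, minus strand): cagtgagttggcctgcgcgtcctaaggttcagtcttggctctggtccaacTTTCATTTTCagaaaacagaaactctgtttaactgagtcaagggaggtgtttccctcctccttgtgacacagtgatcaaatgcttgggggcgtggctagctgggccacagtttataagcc
Oas3 (chr5:120777660-120777829, minus strand): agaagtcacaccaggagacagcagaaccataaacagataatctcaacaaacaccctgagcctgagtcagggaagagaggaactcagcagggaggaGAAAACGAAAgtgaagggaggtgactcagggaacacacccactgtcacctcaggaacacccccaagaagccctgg
Oasl1 (chr5:114923070-114923239, plus strand): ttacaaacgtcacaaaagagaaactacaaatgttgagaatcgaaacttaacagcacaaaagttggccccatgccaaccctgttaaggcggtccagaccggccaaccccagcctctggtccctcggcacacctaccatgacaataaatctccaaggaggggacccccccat
Ifnb1 (chr4:88522795-88522964, minus strand): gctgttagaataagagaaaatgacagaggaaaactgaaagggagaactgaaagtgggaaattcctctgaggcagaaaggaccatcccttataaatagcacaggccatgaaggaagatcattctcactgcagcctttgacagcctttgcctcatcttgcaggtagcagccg

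This core was searched on both strands in windows of 300 bases, from 250 bases before to 50 after the start site. Of the 46 members, 35 had a window, and 19 of those 35 (54.3%) held a match, against 3.99% of all 27025 genes in the RefSeq table. A second match in the window was found in 8 members. Ifit1 had matches beginning at -104 and -85, Ifit3 at -156 and -122, and Isg15 held 3 overlapping ones at -78, -72 and -66. Rsad2 had 1 at -120 and Oas3 1 at -75, while the windows of Oasl1 and of the ligand gene Ifnb1 held no match. Other spacings of the element were not searched. The gamma activated sequence TTCNNNGAA was found in 6 members (17.1%), against 9.55% of all genes, and these were Ifit2, Oas1a, Bst2, Ifi35, Igtp and Eif2ak2.

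Per length, the members spanned from a mean of 0.439 RPKM (CPM per kilobase of exon) for Ifi44 to 941 RPKM for Ifi27l2a, over the 12 libraries. After Ifi27l2a, a small interferon-induced protein, the highest were Lgals3bp, a secreted glycoprotein, at 175 RPKM and Bst2, the tetherin that holds budding virus at the membrane, at 140 RPKM. Oasl1 followed at 118 RPKM and Ifit1 at 107 RPKM. The 3 transcription factors lay close together, with Irf7 at 26 RPKM, Irf9 at 19.5 RPKM and Stat2 at 17.5 RPKM. The sensors lay between 5.97 RPKM (Eif2ak2, the kinase PKR) and 22.7 RPKM (Ifih1, the RNA sensor MDA5).

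Aorta was compared with fat at a fixed sort to ask how the same gate differs by tissue. A few antiviral effectors differed by large factors between the tissues while most members did not: the log2 fold change was under 0.5 in size for 33 of 46 members in LYVE1+ cells and 31 of 46 in LYVE1- cells. Called means an adjusted p below 0.05 by edgeR's quasi-likelihood test, with Benjamini-Hochberg adjustment over all genes tested. In LYVE1+ cells Ifit1 and Oasl1 were higher in the aorta and Oas3 was lower. In LYVE1- cells Ifit1, Oasl1, Ifih1 and Oas2 were higher in the aorta and none was called lower. In LYVE1+ cells 3 of 46 members (6.52%) were called, against 3% of all genes, with 2 higher (1.88% of all genes) and 1 lower (1.12%). In LYVE1- cells 4 of 46 (8.7%) were called, against 2.48% of all genes, with 4 higher (1.66% of all genes) and 0 lower (0.823%). At an unadjusted p under 0.05 there were 10 and 11 members, against 15.3% and 15.2% of all genes. DESeq2 called 6 and 5 members, beside 6.49% and 5.96% of all genes. With the prefix as a covariate edgeR called only Ifit1 in LYVE1+ cells and no member in LYVE1- cells, and without the most erythroid library of each aortic group it called only Ifit1 at each sort (all genes: 1.27% and 0.0492% with the prefix, 1.06% and 0.741% without those libraries). That prefix term is set by aortic LYVE1+ library 3 against libraries 1 and 2 alone, since no other group holds both prefixes. A call lost with it in LYVE1- cells, here or below, therefore cannot tell a tissue difference from a prefix difference. The median log2 fold change of the members was -0.01 in LYVE1+ cells and 0.06 in LYVE1- cells, beside -0.02 and 0.00 over all genes. The tissues did not overlap for 8 of 46 members in LYVE1+ and 12 of 46 in LYVE1- cells, beside 20.6% and 21.1% of all genes.

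**Figure D1:**
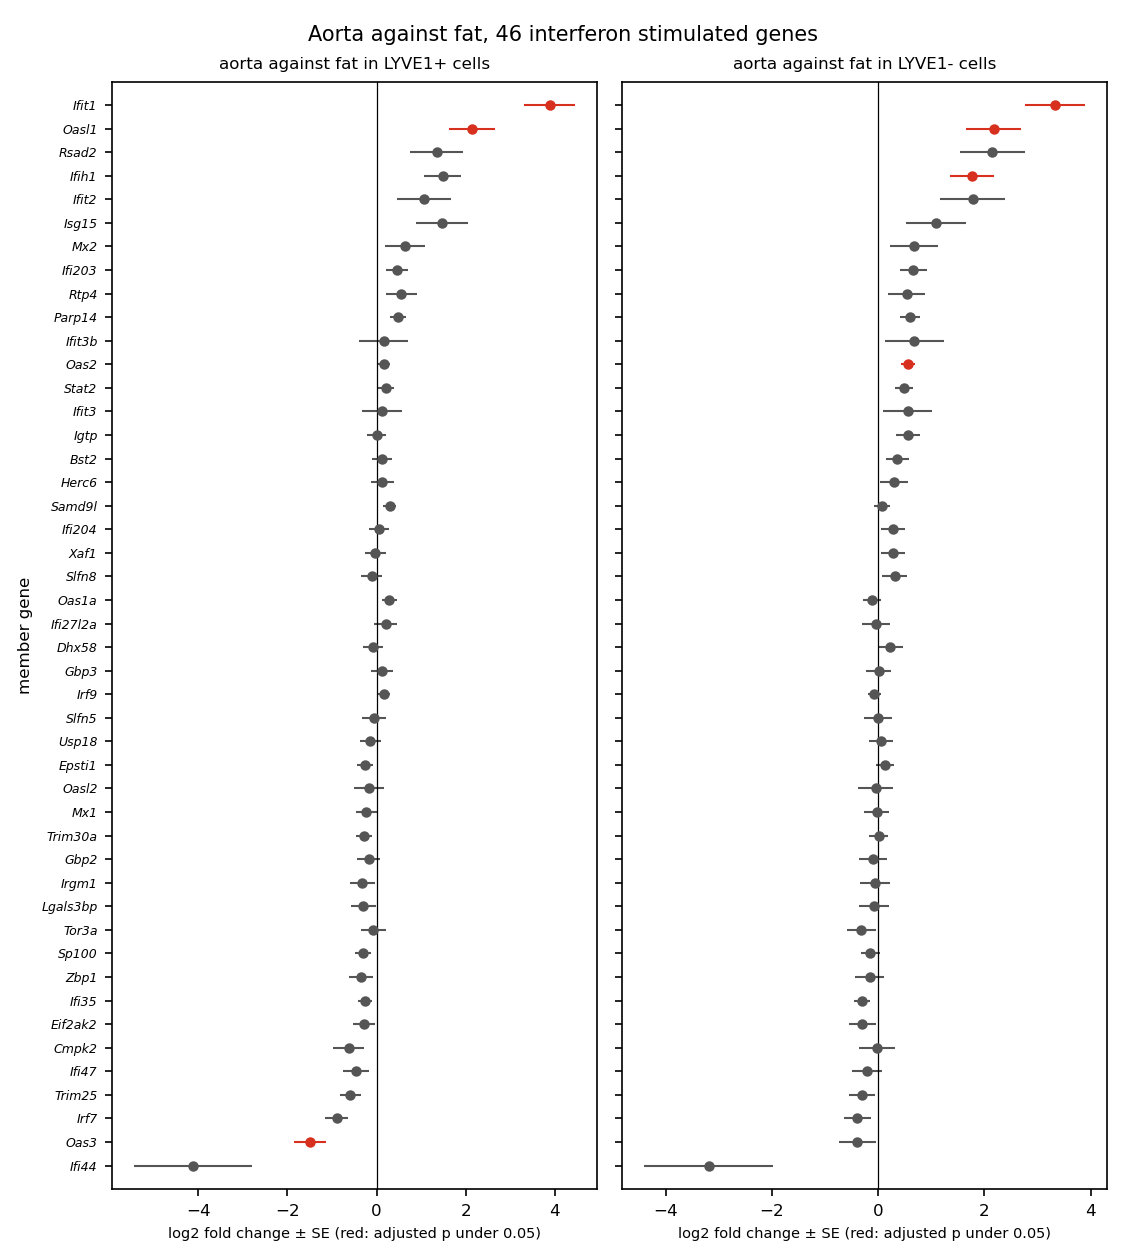
Points are the log2 fold change of each member for aorta against fat, with the SE as bars, in LYVE1+ cells (left) and LYVE1- cells (right); red marks an adjusted p under 0.05. Ifit1 stands at 3.88 and 3.33, most members lie near 0, and Ifi44 at the foot has the lowest values with wide bars.

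Ifit1 binds viral RNA that lacks the host cap methylation and blocks its translation. It read 633, 162 and 933 CPM in aortic LYVE1+ libraries 1 to 3 and 663, 554.0 and 206 CPM in aortic LYVE1- libraries. In fat it read 25, 45.9 and 45.6 CPM in LYVE1+ libraries and 47.7, 42.7 and 51.3 CPM in LYVE1- libraries. Every aortic library was above every fat library, although aortic libraries of one group differed among themselves by several fold. The log2 fold change was 3.88 in LYVE1+ cells (SE 0.57, 14.7-fold, edgeR adjusted p = 0.00346) and 3.33 in LYVE1- cells (SE 0.56, 10-fold, edgeR adjusted p = 0.0088). In LYVE1+ cells the call held without any 1 of the 12 libraries and under all 8 other settings tried, with a log2 fold change of 3.35 to 4.32. Within the RMM prefix, with aortic LYVE1+ library 3 left out, the log2 fold change was 3.35 (edgeR adjusted p = 0.0142). In LYVE1- cells it was lost without fat LYVE1- library 3 (3.39, edgeR adjusted p = 0.0539) and with the prefix as a covariate (2.1, edgeR adjusted p = 0.76).

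Oasl1, a relative of the OAS enzymes that inhibits translation of Irf7, read 419, 149 and 904 CPM in aortic LYVE1+ libraries 1 to 3. It read 663, 641 and 242 CPM in aortic LYVE1- libraries, and 94.1 to 136 CPM over the 6 fat libraries. All 6 aortic libraries were above all 6 fat libraries, but aortic LYVE1+ library 2 only narrowly. The log2 fold change was 2.14 in LYVE1+ cells (SE 0.51, edgeR adjusted p = 0.0425) and 2.17 in LYVE1- cells (SE 0.51, edgeR adjusted p = 0.0446). In LYVE1+ cells this call was lost without any 1 of 9 libraries, all except aortic LYVE1+ library 2, aortic LYVE1- library 3 and fat LYVE1- library 1, with adjusted p up to 0.18. The value without aortic LYVE1+ library 3, which leaves the RMM prefix alone, was 1.36 (edgeR adjusted p = 0.181). In LYVE1- cells it was lost without any 1 of 8 libraries, all except aortic LYVE1+ libraries 2 and 3, aortic LYVE1- library 3 and fat LYVE1+ library 1, with adjusted p up to 0.17, and with the prefix as a covariate it was 0.50. Oasl1 shares 38 bases of exon with Gm13822 on the opposite strand, and the strand setting of the counting is not given in the sources used here.

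Ifih1 read 244, 109 and 310.1 CPM in aortic LYVE1+ libraries and 497, 375 and 150 CPM in aortic LYVE1- libraries. In fat it read 77.4 to 82.7 CPM in LYVE1+ libraries and 75.7 to 133 CPM in LYVE1- libraries. The tissues did not overlap at either sort. The difference was called in LYVE1- cells (log2 fold change 1.77, SE 0.41, edgeR adjusted p = 0.0443) and not in LYVE1+ cells (1.48, SE 0.41, edgeR adjusted p = 0.0814). The call was lost without aortic LYVE1+ library 1, aortic LYVE1- library 1 or 2, or any 1 of fat libraries 2 and 3 of both sorts, with adjusted p up to 0.17. The other sensors were not called in any comparison: Dhx58 (LGP2) was at 34.9 to 70.9 CPM over all 12 libraries, Zbp1 at 32.2 to 65.8 CPM and Eif2ak2 at 15.1 to 42.4 CPM.

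Oas2 and Oas3, enzymes that make the messenger that activates RNase L, had unlike patterns. Oas3 read 20.9, 20.1 and 24.2 CPM in aortic LYVE1+ libraries and 30.7, 67.8 and 83.8 CPM in fat LYVE1+ libraries, which do not overlap. It was 2.81-fold lower in the aorta (log2 fold change -1.49, SE 0.36, edgeR adjusted p = 0.0425). This call was lost without any 1 of 9, all except aortic LYVE1- library 3 and the fat libraries numbered 1, with adjusted p up to 0.17. In LYVE1- cells the log2 fold change of Oas3 was -0.39 (SE 0.35, edgeR adjusted p = 0.655). Oas2 stood at 172 to 244 CPM in 3 groups and at 114.0 to 134 CPM in fat LYVE1- libraries, and is described with the sort.

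Rsad2, Isg15 and Ifit2 had their highest values in the same aortic libraries but were not called by the edgeR fit of all 12 libraries. Other settings did call some of them: DESeq2 called Rsad2 in LYVE1- cells, as did edgeR without aortic LYVE1+ library 2 or 3, and with only the LYVE1- groups fitted edgeR called Ifit2. With no filter on low counts Isg15 and Rsad2 were called in LYVE1+ cells, and Ifit2 and Rsad2 in LYVE1- cells. Rsad2 (viperin, which makes a chain-terminating nucleotide) read 175, 69.4 and 482 CPM in aortic LYVE1+ libraries, 456, 205 and 100.4 CPM in aortic LYVE1- libraries and 45.9 to 115 CPM in fat. Its log2 fold change was 1.35 (SE 0.59, edgeR adjusted p = 0.291) in LYVE1+ and 2.15 (SE 0.61, edgeR adjusted p = 0.092) in LYVE1- cells. Isg15 read 55.7, 19.5 and 139 CPM, then 123, 81.2 and 37.2 CPM in aortic LYVE1+ and LYVE1- libraries, against 22.1 to 55.7 CPM in fat, and the groups overlapped. Ifit2 read 188, 64.5 and 254 CPM, then 223, 213 and 90.5 CPM in the aorta. In fat Ifit2 ran from 19 to 119 CPM in LYVE1+ and from 30.4 to 70.8 CPM in LYVE1- libraries. The tissues overlapped for Ifit2 in LYVE1+ cells only.

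Ifit3, whose promoter holds a pair of matches to the response element core as that of Ifit1 does, had similar levels in both tissues. It read 50.5 to 85.9 CPM in aortic LYVE1+ libraries, 41.9 to 86.8 CPM in aortic LYVE1-, 24.4 to 82.8 CPM in fat LYVE1+ and 18.6 to 60.9 CPM in fat LYVE1- libraries. The log2 fold change of Ifit3 was 0.13 (SE 0.45) in LYVE1+ and 0.56 (SE 0.46) in LYVE1- cells, neither called. Its close paralog Ifit3b read 1.79 to 15.5 CPM, and reads may be split between the pair in ways the counting does not show. Ifi44, a protein of unsettled function, read 0 to 0.936 CPM over the aortic libraries, below the 2.3 to 7.75 CPM of the fat libraries, and was not called by edgeR (adjusted p = 0.135 in LYVE1+ cells). DESeq2 called Ifi44 there.

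The ISG15 system holds the modifier and the enzymes that attach or remove it. Trim25, a ubiquitin ligase of the RIG-I pathway, stood at 98.4 to 182 in aortic LYVE1+ and 190.2 to 222 in fat LYVE1+ libraries, which do not overlap (log2 fold change -0.59, SE 0.24, edgeR adjusted p = 0.258). Usp18, which removes ISG15, and the ligase Herc6 were at 23.4 to 46.8 and 15.4 to 30.8 CPM with no call. Among transcription factors, Irf7 read 62 to 88.8 CPM in aortic LYVE1+ libraries and 85, 177 and 163 CPM in fat LYVE1+ libraries (log2 fold change -0.90, SE 0.26, edgeR adjusted p = 0.0866). Of these 3 fat libraries, library 1 alone lay within the aortic range. Irf9 stayed between 87.5 and 118 CPM in all 12 libraries.

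**Figure D2:**
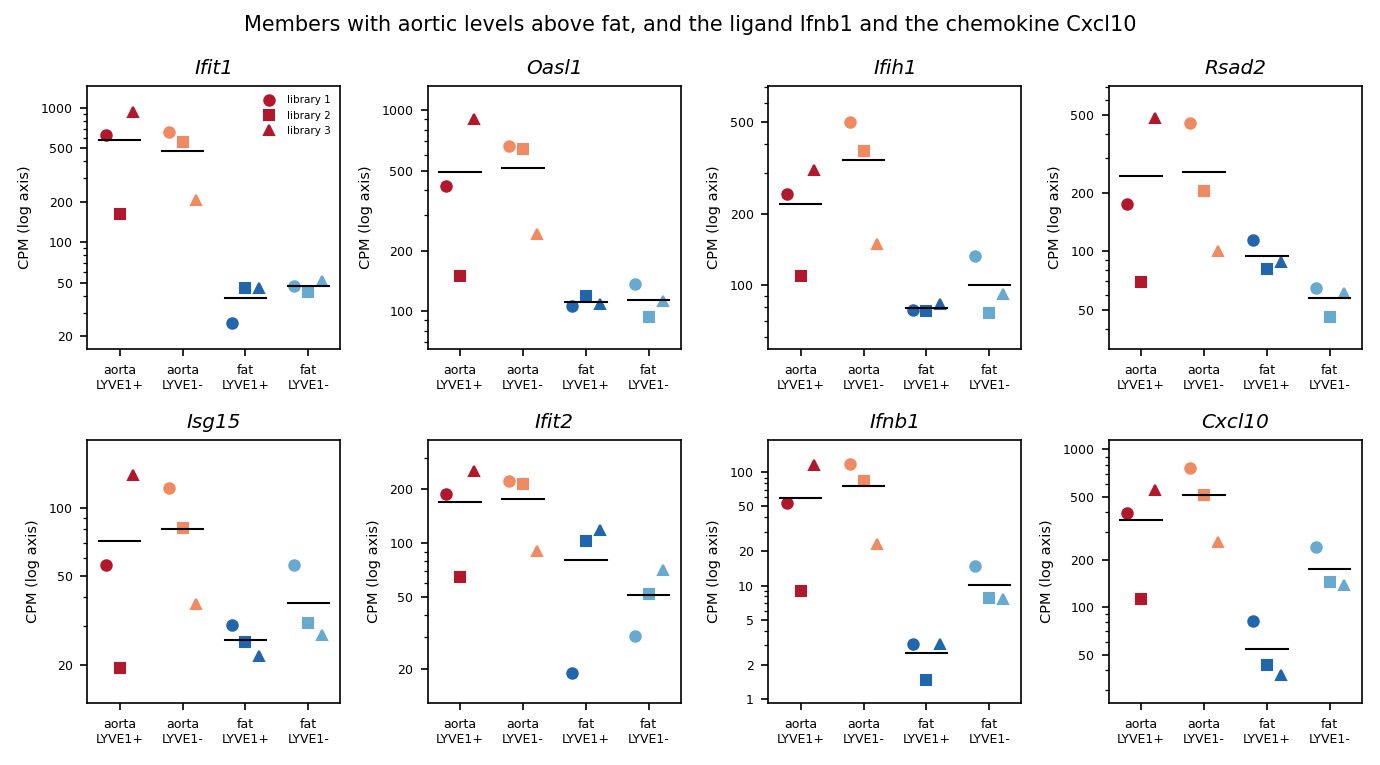
Points are CPM on a log axis in each of the 3 libraries of a group (circle, square and triangle for libraries 1, 2 and 3) and bars the group means, for 6 members and for Ifnb1 and Cxcl10. In the aorta LYVE1+ library 2 and LYVE1- library 3 are the lowest of their groups in every panel.

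Inside a group the median spread of the members was about that of other genes, which were not matched to the members by level. The median SD of log2(CPM + 0.5) was 0.26 for members and 0.26 for other genes in aortic LYVE1+ libraries, and 0.31 and 0.27 in aortic LYVE1-. It was 0.38 and 0.33 in fat LYVE1+, and 0.29 and 0.33 in fat LYVE1- libraries. In aortic LYVE1+ libraries 9 of 46 members ranged over 2-fold, beside 20.9% of all genes. There 4 of 46 (Ifit1, Isg15, Oasl1 and Rsad2) ranged over 4-fold, beside 3.91% of all genes. In each of the other groups 1 member did, beside 3.12% (aortic LYVE1-), 8.19% (fat LYVE1+) and 7.01% (fat LYVE1-) of all genes. The spread inside the aortic groups followed a common order of libraries, which was noticed after the values were seen and is given as a description. In LYVE1+ cells 26 of 46 members were ordered library 3 over 1 over 2, beside 18% of all genes. In LYVE1- cells 25 of 46 were ordered 1 over 2 over 3, beside 19.3% of all genes. Both orders held for 18 members (39.1%, beside 4.78% of all genes), among them Ifit1, Ifit2, Ifit3, Isg15, Mx2, Oasl1, Ifih1, Rsad2, Rtp4 and Stat2. In fat, library 1 was the lowest of its group for 36 members in LYVE1+ cells and for 33 in LYVE1- cells, beside 39.1% and 38.8% of all genes. Erythroid marker sums had the same aortic order, with 252, 1.8 and 1400 CPM in LYVE1+ and 340, 259 and 16.6 CPM in LYVE1- libraries, and all 5 markers were read. In fat LYVE1+ cells, library 1 had the highest erythroid sum of all 12 libraries and the lowest Ifit1. It also had the highest Rsad2 and Isg15 of its group (115 and 30.3 CPM). Library 1 was the highest of its group for 2 members in fat LYVE1+ and 9 in fat LYVE1- cells, beside 42.1% and 40.1% of all genes. Those in LYVE1- cells included Oasl1, Ifih1, Rsad2 and Isg15. Without the most erythroid library of each aortic group, the log2 fold change of Ifit1 was 3.35 in LYVE1+ cells (edgeR adjusted p = 0.0216) and 3.01 in LYVE1- cells (edgeR adjusted p = 0.033), an alternative chosen after seeing the data. B cell markers summed to 17.1, 7.44 and 73.8 CPM in aortic LYVE1+ and 112, 123 and 34.7 CPM in aortic LYVE1- libraries, and fibroblast markers to 830, 2380 and 1130 and to 1240, 2240 and 1740 CPM, against 408 to 956 CPM in fat. Other marker sums moved with the tissue. Smooth muscle markers summed to 23.1 to 72.6 CPM over the aortic libraries against 3.73 to 18.1 CPM over the fat ones (1 of 4 called higher in LYVE1+ and 3 of 4 in LYVE1- cells), and adipocyte markers to 5.55 to 13 against 21.3 to 98.9 CPM (2 of 5 called lower at each sort). Monocyte markers came to 25.4 to 33.4 CPM in aortic and 78.1 to 292 CPM in fat LYVE1+ libraries, and to 159 to 311 CPM against 656 to 827 CPM in LYVE1- libraries (2 and 0 of 6 called lower). Of the plasmacytoid dendritic cell markers, Siglech read 145 to 151 CPM in aortic and 62.3 to 69.7 CPM in fat LYVE1+ libraries, and 124 to 180 against 13.7 to 24 CPM in LYVE1- libraries, and was called higher in the aorta at both sorts. In LYVE1+ cells 6 of the 7 tested markers of this list were lower in the aorta, with 1 called higher and 1 called lower. The sum over all 8 of these markers was 267 to 289 CPM in aortic and 481 to 506 CPM in fat LYVE1+ libraries, and 203 to 300 against 108 to 144 CPM in LYVE1- libraries. Most of the sum in fat LYVE1+ libraries came from 1 gene, Cd209d, at 339 to 415 CPM there and 105 to 136 CPM in aortic LYVE1+ libraries. The sum is therefore not a measure of plasmacytoid dendritic cells. The part of any of these cell types in the member levels was not tested.

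The sort comparison asked whether LYVE1+ and LYVE1- macrophages of one tissue differ. Members were called by sort no more often than all genes were. Oas2 was the sole call, higher in LYVE1+ cells of fat. Ifi27l2a had the highest log2 fold change of the 46 in both tissues without passing the test. In the aorta, where the prefix largely follows the sort, 0 of 46 members were called by edgeR, beside 0.542% of all genes (0.113% higher and 0.429% lower). In the same comparison 2 members (Ifi27l2a and Mx1) had an unadjusted p under 0.05, beside 11.3% of all genes, and DESeq2 called 1 (Ifi27l2a), beside 2.53% of all genes. In fat 1 of 46 (2.17%) was called, beside 3.93% of all genes (1.82% higher and 2.1% lower), and 4 members had an unadjusted p under 0.05, beside 15.8% of all genes. The median log2 fold change was -0.05 in the aorta and 0.18 in fat, beside -0.01 and 0.00 over all genes. The groups did not overlap for 5 members in the aorta and 6 in fat, beside 22.4% and 18.9% of all genes.

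Oas2 read 190, 194 and 183 CPM in fat LYVE1+ libraries and 134, 114.0 and 122 CPM in fat LYVE1- libraries. It was 1.54-fold higher in LYVE1+ cells (log2 fold change 0.62, SE 0.13, edgeR adjusted p = 0.0199). The call was lost without fat libraries 2 or 3 of either sort (adjusted p up to 0.098) and with only the fat groups fitted (0.0789). In the aorta Oas2 read 206, 186 and 244 against 187, 188 and 172 CPM, and the groups overlapped. Against the aortic LYVE1- libraries the fat LYVE1- libraries were lower, with a log2 fold change of 0.56 for aorta against fat (SE 0.13, edgeR adjusted p = 0.0443), a call lost without any 1 of 8 libraries, all except aortic LYVE1+ libraries 2 and 3 and the fat libraries numbered 1, with adjusted p up to 0.17.

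Ifi27l2a read 603, 593 and 668 CPM in aortic LYVE1+ libraries and 193, 366 and 299.9 CPM in aortic LYVE1- libraries. In fat it read 388, 620.2 and 614 CPM in LYVE1+ libraries and 207, 323 and 351 CPM in LYVE1- libraries. The sorts did not overlap in either tissue. The difference was 2.17-fold in the aorta (log2 fold change 1.12, SE 0.26, edgeR adjusted p = 0.0913) and 1.84-fold in fat (0.88, SE 0.26, edgeR adjusted p = 0.086), both short of the threshold. With the replicate number as a block, which pairs the fat libraries, the fat value was 0.89 and was called (edgeR adjusted p = 0.0112). Ifi27l2a in fat was also called without fat LYVE1+ library 1, and in the aorta without either fat library numbered 1. Without any other single library it stayed uncalled, with edgeR adjusted p up to 0.41 in the aorta and 0.32 in fat. In the aorta DESeq2 called it, as did edgeR with no filter on low counts or with only the groups compared. It was also called there without both fat libraries numbered 1 and with the replicate block, although aortic numbers did not pair. Over all 8 other settings the adjusted p (edgeR or DESeq2) in the aorta ran from 0.0014 to 0.71. In fat it was also called by DESeq2 and by edgeR with no filter. The log2 fold change ran from 0.84 to 1.34 in the aorta and from 0.68 to 1.08 in fat.

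**Figure D3:**
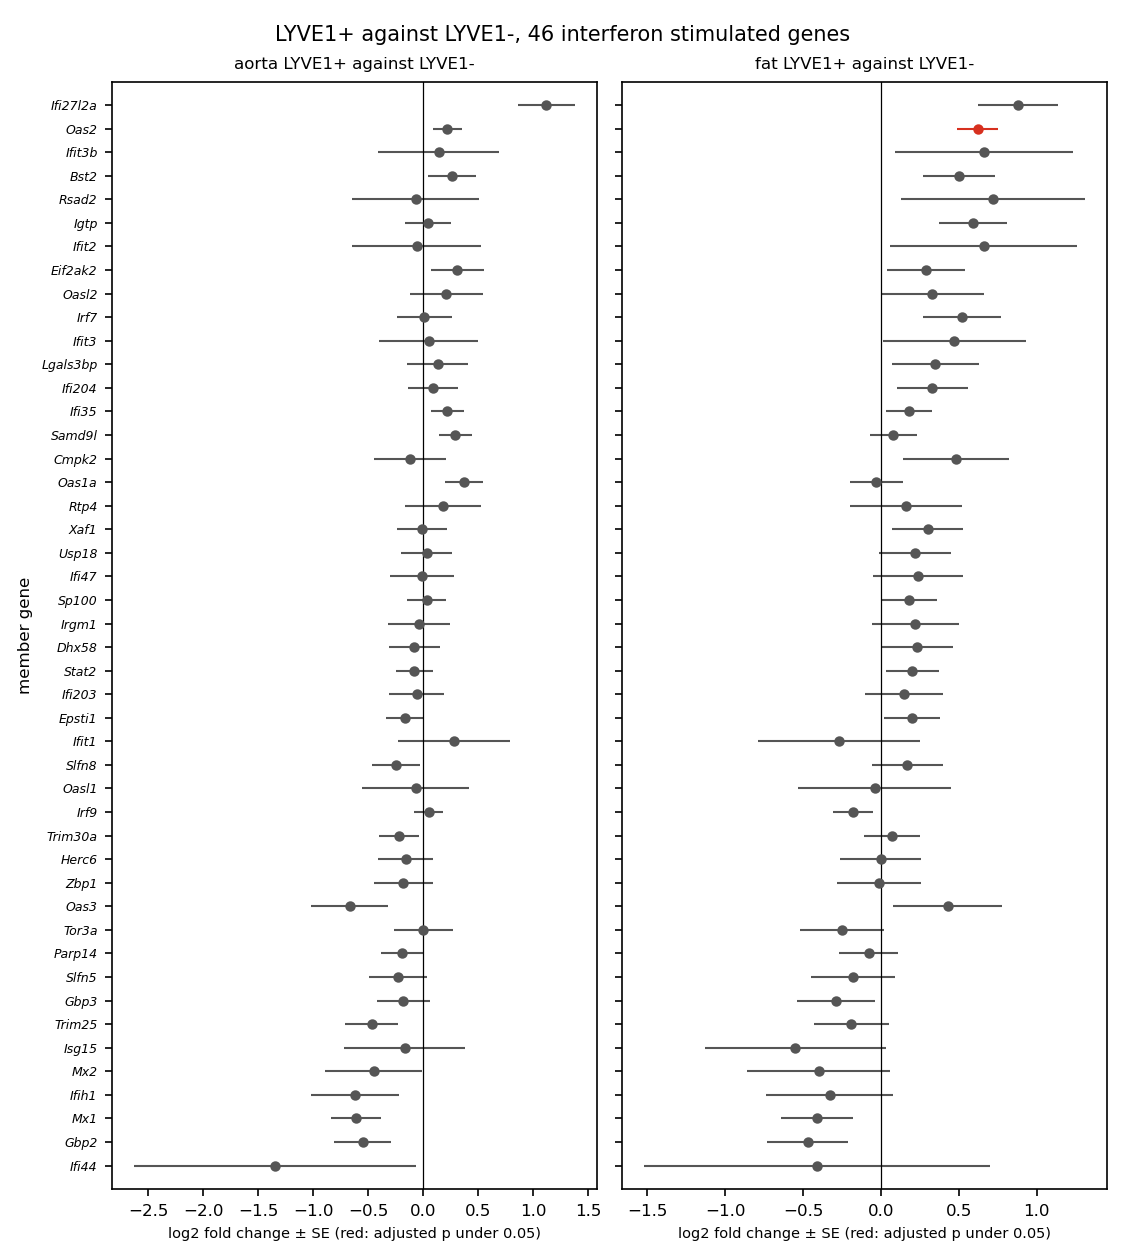
Points are the log2 fold change of each member for LYVE1+ against LYVE1- cells, with the SE as bars, in the aorta (left) and fat (right); red marks an adjusted p under 0.05. Ifi27l2a is at 1.12 and 0.88, and Oas2 in fat is the red point, at 0.62.

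Mx1, a gene of the dynamin-like guanosine triphosphatases that is known to carry an inactivating deletion in this and many other laboratory strains, stood at 15.3 to 18.6 CPM in aortic LYVE1+ and 18.8 to 33.9 CPM in aortic LYVE1- libraries, and 14.4 to 22.7 against 25 to 28.7 CPM in fat. The sorts did not overlap in either tissue, and the log2 fold changes were -0.61 (SE 0.23, edgeR adjusted p = 0.324) and -0.41 (SE 0.23, edgeR adjusted p = 0.447). The interferon-inducible GTPases were mixed: Gbp2 read 48.1 to 69.3 CPM in LYVE1+ against 71.2 to 95.5 CPM in LYVE1- libraries of the aorta (edgeR adjusted p = 0.461), and Igtp read 48.2 to 74.8 against 29.6 to 46.9 CPM in fat (edgeR adjusted p = 0.182). Ifi204 and Ifi203, DNA-binding proteins of the IFI200 family, and Ifi47, with 62.1 to 150 CPM, were not called in any comparison, nor was Lgals3bp, at 321 to 753 CPM. In all, 5 of 46 members were called in at least 1 of these 4 comparisons and 41 in none. The 23 members described by their range alone, among them Bst2, Stat2, Usp18, Cmpk2, Mx2, Oas1a, Oasl2, Rtp4, Parp14, Gbp3 and Irgm1, had log2 fold changes from -0.63 (Cmpk2) to 0.68 (Mx2) over the 4 comparisons. Exons of 16 members overlap another gene on one strand or the other, among the named ones Irf7, Irf9, Dhx58, Ifi203, Ifi47, Igtp and Gbp2, so their counts are less certain.

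**Figure D4:**
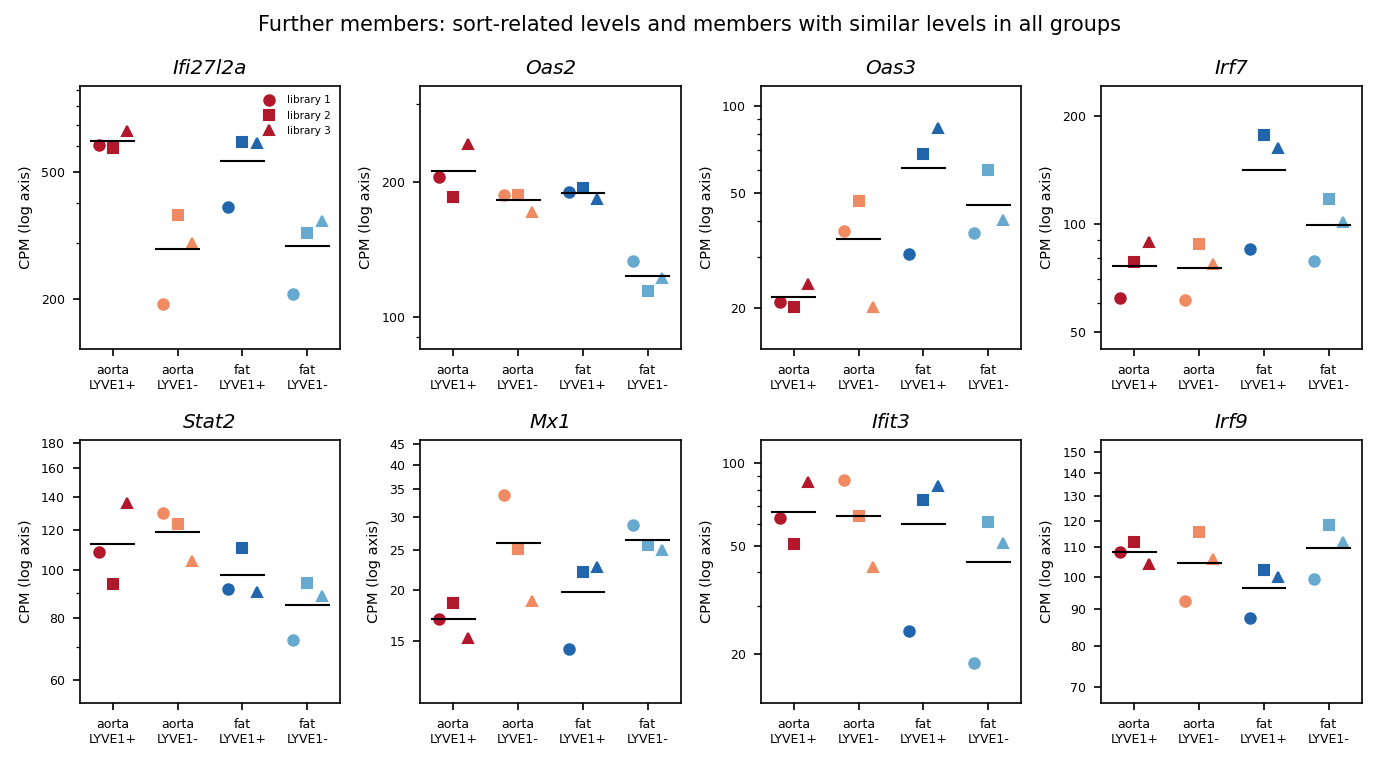
Points are CPM on a log axis in each of the 3 libraries of a group and bars the group means, for 8 members. Ifi27l2a lies higher in LYVE1+ than in LYVE1- libraries of both tissues, Oas2 is lowest in fat LYVE1- libraries, and Ifit3 and Irf9 overlap between tissues or sorts.

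The difference of the sort effect between tissues (the interaction) was called by edgeR for 0 of 46 members, beside 0.155% of all genes (0.148% higher and 0.00703% lower). At an unadjusted p under 0.05 there was 1 member (Oas3), beside 6.06% of all genes, and DESeq2 called 0, beside 0.703% of all genes. The median interaction was -0.21, beside -0.02 over all genes. The interaction was negative for 35 of 46 members, and the share of all genes with a negative value was not taken. These signs are not separate observations, since members moved together by library. Both fat libraries numbered 1 were the lowest of their group for 30 members, beside 23.8% of all genes.

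The other genes of the pathway were taken from lists of ligands, receptors, kinases, induction genes, negative regulators, interferon gamma weighted genes and further interferon stimulated genes. Of 21 ligand genes, 11 had no counts and only Ifnb1, interferon beta, passed the filter. Ifnb1 read 53.4, 9.02 and 117 CPM in aortic LYVE1+ and 119, 83.7 and 23.1 CPM in aortic LYVE1- libraries, the same order as Ifit1, against 1.47 to 3.07 CPM in fat LYVE1+ and 7.67 to 15 CPM in fat LYVE1- libraries. In LYVE1+ cells the log2 fold change was 4.61 (SE 0.87, edgeR adjusted p = 0.0135) and in LYVE1- cells 2.91 (SE 0.76, edgeR adjusted p = 0.0668). The LYVE1+ call was lost without fat LYVE1+ library 2 or 3 (adjusted p up to 0.074) and without the 2 most erythroid aortic libraries (3.68, edgeR adjusted p = 0.0547).

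Of 6 receptor genes 5 were tested and none was called in any comparison, with Ifngr1 at 352 to 534 CPM over the 12 libraries. The kinase gene Jak1, at 375 to 534 CPM, was not called either. Of 13 induction genes, Ikbke (a kinase that activates IRF3) and Myd88 (an adaptor of Toll-like receptors) were called lower in the aorta at both sorts and none was called higher. Ikbke read 10.6 to 17.9 CPM over the 6 aortic libraries and 39 to 75.9 CPM over the 6 fat libraries, with log2 fold changes of -1.53 in LYVE1+ (SE 0.23, edgeR adjusted p = 0.0042) and -1.87 in LYVE1- cells (SE 0.23, edgeR adjusted p = 0.00142). The Ikbke calls held without any 1 of the 12 libraries, and that in LYVE1- cells was lost with the prefix as a covariate (adjusted p = 0.24). Myd88 had log2 fold changes of -0.62 in LYVE1+ (edgeR adjusted p = 0.0236) and -0.68 in LYVE1- cells (edgeR adjusted p = 0.0161), and each call was lost without any 1 aortic library of its sort or without fat library 2 or 3 of its sort (adjusted p up to 0.11 and 0.086), as well as with the prefix as a covariate (0.0501 and 0.519). Samhd1, which depletes nucleotides, was the sole call among 7 tested regulators, with a log2 fold change of -0.75 in LYVE1+ cells (edgeR adjusted p = 0.00874), lost without aortic LYVE1+ library 3 or fat LYVE1+ library 2 or 3 (adjusted p up to 0.054), and with the prefix as a covariate (0.0501).

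Of 14 genes weighted to interferon gamma 11 were tested. In the aorta against fat, 1 was higher in LYVE1+ cells (Cxcl10, a chemokine, log2 fold change 2.72, edgeR adjusted p = 0.0192), and in LYVE1- cells Cd274 was higher (1.27, edgeR adjusted p = 0.0423) and Irf1 lower (-0.83, edgeR adjusted p = 0.0107). By sort, Ciita, the MHC class II transactivator, was lower in LYVE1+ cells of the aorta (-2.92, edgeR adjusted p = 0.049) and of fat (-2.45, edgeR adjusted p = 0.032), and Tap1 in fat (-0.80, edgeR adjusted p = 0.00991). Leaving out 1 library ended the call of Cxcl10 (aortic LYVE1+ 1 or 3, fat LYVE1+ 2 or 3; adjusted p up to 0.086), of Irf1 (aortic LYVE1- 1; 0.053) and of Tap1 (fat LYVE1+ 2 or 3; up to 0.063). That of Cd274 ended without aortic LYVE1+ 3, any aortic LYVE1- library, fat LYVE1+ 3 or fat LYVE1- 2 or 3 (up to 0.16). Those of Ciita ended without any aortic library or fat LYVE1- 2 or 3 in the aorta (up to 0.26), and without aortic LYVE1+ 1, fat LYVE1+ 2 or 3 or any fat LYVE1- library in fat (up to 0.13). With the prefix as a covariate the calls of Cxcl10 (edgeR adjusted p = 0.0735), Cd274 (0.766), Irf1 (0.48) and aortic Ciita (0.726) ended. Without the 2 most erythroid aortic libraries those of Cxcl10 (0.0804), Cd274 (0.177), Irf1 (0.0712) and of Ciita in the aorta (0.424) and in fat (0.0701) ended. For LYVE1+ against LYVE1- cells the median log2 fold change of the 11 was -0.71 in the aorta and -0.80 in fat, beside -0.01 and 0.00 over all genes. Of 34 further interferon stimulated genes 33 were tested, and in LYVE1+ cells Ifitm6, Ifi213 and Slfn1 were lower in the aorta (-0.95, -0.75 and -1.70), in LYVE1- cells Ifitm6 (-0.76), and by sort in fat Slfn9 was lower in LYVE1+ cells (-1.50). Each of these 5 calls was lost without some single libraries. For Ifitm6 in LYVE1+ cells these were aortic LYVE1+ 1 and 3 and fat LYVE1+ 3 (adjusted p up to 0.058), and in LYVE1- cells 9 libraries, all except aortic LYVE1- 3 and fat LYVE1+ 1 and 3 (up to 0.14). For Slfn1 they were aortic LYVE1+ 1 and 3 and fat LYVE1+ 2 and 3 (up to 0.076), for Ifi213 all aortic LYVE1+ libraries, aortic LYVE1- 2 and fat LYVE1+ 2 and 3 (up to 0.14), and for Slfn9 fat libraries 2 and 3 of both sorts (up to 0.096). With the prefix as a covariate the calls of Ifitm6 (0.0513 in LYVE1+ and 0.801 in LYVE1- cells), Ifi213 (0.0803) and Slfn1 (0.0741) also ended.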

How the data were processed

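The 12 libraries were made per the labels' protocols by Smart-seq2, an unstranded method, with 2 ng of input RNA and paired sequencing of 51 cycles. The deposited table holds raw counts per gene; per the submitters' processing notes the tools were STAR 2.5.2b, featureCounts 1.5.0 and edgeR 3.14.0 and the build GRCm38, and the strand setting is not given in the sources used here. A second deposited table of log2 CPM was not used. Counts were fitted with edgeR 4.0.16 in R 4.3.3 (quasi-likelihood test, TMM factors, 1 mean per group, 8 residual degrees of freedom, 14216 genes after filterByExpr). Levels are TMM-scaled CPM; RPKM divides by exonic length of GENCODE M21. The SE is the log2 fold change over the square root of F. Tests were two-sided, with Benjamini-Hochberg adjustment over all tested genes. With 3 libraries a group, an exact permutation test cannot go below p = 0.1. Alternatives were DESeq2 1.42.0, no filter, other size factors, fewer groups, a replicate block, the prefix as covariate, and each library left out. Replicate numbers paired the fat libraries (same-number correlations of deviations 0.486, 0.279 and 0.184), a pairing taken from these data; numbers 2 and 3 were not told apart, since LYVE1+ library 3 with LYVE1- library 2 gave 0.225 and LYVE1+ library 2 with LYVE1- library 3 gave 0.192.

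The members and lists were chosen with earlier results of these data known. Named members are those called in any comparison, the 2 highest per role group, the 5 largest fold changes per comparison above an average log2 CPM of 4, and those with over 4-fold spread in a group; other genes named are the called ones of their list, or else its 2 highest, and Ifit3, Ifi44, Zbp1, Stat2 and the other members were named after their values were seen. Exon overlaps (16 members) and close paralogs leave those counts uncertain. Promoters and their sequences are RefSeq entries of GRCm38.p6.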

Additional observations from a re-analysis of the deposited data

How the results depend on the processing

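None of the 27 pairs of gene and comparison recomputed changed direction. Counts of called members are sensitive to the settings, as is the share of all genes called, given in brackets. In the aortic sort comparison 0 (beside 0.542% of all genes) became 1 with no filter on low counts (1.33%), DESeq2 (2.53%), only the groups compared (2.15%), the replicate block (1.71%), or without both fat libraries numbered 1 (3.83%). The count was 0 to 1 when any 1 library was left out (0.155% to 1.41%), and the gene was Ifi27l2a. In the fat sort comparison 1 (beside 3.93% of all genes) became 2 with no filter (3.24%), DESeq2 (7.13%), the replicate block (6.44%), or without both fat libraries numbered 1 (6.01%). It became 0 with only the groups compared (1.64%). Leaving out 1 library gave 0 (fat LYVE1+ 2 or 3, 1.44% and 1.55%, and fat LYVE1- 2 or 3, 2.8% and 2.15%) to 3 (fat LYVE1+ 1, 6.9%). In the tissue comparison of LYVE1+ cells 3 (beside 3% of all genes) became 8 with no filter (3.24%), and 6 with DESeq2 (6.49%) or without both fat libraries numbered 1 (6.03%). It became 1 with only the groups compared (1.89%), with the prefix as covariate (1.27%), or without the 2 most erythroid aortic libraries (1.06%). Leaving out 1 library gave 1 to 4 (1.13% to 3.6%). There the replicate block (2.63%) called 2, Ifit1 and Irf7, and ended the calls of Oasl1 (2.05, edgeR adjusted p = 0.0774) and Oas3 (-1.44, edgeR adjusted p = 0.0504). In LYVE1- cells 4 (beside 2.48% of all genes) became 2 (Ifih1 and Ifit1) with the replicate block (2.25%). The block ended the calls of Oasl1 (edgeR adjusted p = 0.0554) and Oas2 (edgeR adjusted p = 0.0572). The count was 0 with the prefix (0.0492%) and 1 without those 2 aortic libraries (0.741%). Leaving out 1 library gave 0 to 5 (0.649% to 3.57%). The interaction stayed at 0 in every setting (0% to 0.703% of all genes). The cause was not tested. Aortic numbers did not pair (same-number correlations -0.044, -0.077 and -0.170). Ifi44 had no count in 3 aortic libraries. DESeq2 gave no adjusted p for Ciita by sort. The small number of libraries limits the precision of every difference here.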
